A study of Mus musculus with 12 samples.

Results

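The secreted Wnt antagonists Sfrp1, Sfrp2, Frzb, Dkk1, Dkk3 and Wif1 were followed along the length of the embryonic mouse neocortex. The family was chosen by the rostral over caudal ratio of Sfrp1 in these same pools, which was already known, and its probes were found through the platform's probe-to-gene table. The table gave 7 of the 21998 probes, 2 for Sfrp1 and 1 for each of the other members. All 6 genes had values, and 5 of them, without Dkk1, had enough pools to enter a fit of 14418 features. Because the choice used the rostral over caudal ratios, those ratios are given for the members as a description, without a test. The tests are kept for the difference between the strains and for the other genes of the Wnt pathway.

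The tissue was embryonic neocortex at stage E13.5 from 2 mouse strains, MF1, which is outbred, and C57, which is inbred, with no treatment named in the labels. On each array rostral RNA was set against caudal RNA of the same pool, with Cy3 and Cy5 as dyes. Each strain had 3 pools, and every pool was hybridised on 2 arrays of opposite dye order, so that the 6 pools filled 12 arrays. A pool held the rostral or the caudal 1 of 3 parts of the neocortex of 3 embryos, and its cDNA was amplified before labelling, by the submitters' account. Tissue sets were taken within single litters, but how many litters stand behind the 3 pools of a strain is not stated. The p-values therefore measure the spread among these pools, which may in part be technical. The rostral and the caudal piece may also differ in cell types, and in such pieces fewer cells of a type and less RNA per cell cannot be told apart.

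Wnt proteins are secreted signals that bind Frizzled receptors and the co-receptors Lrp5 and Lrp6, and stabilise beta-catenin in the receiving cell. In the embryonic telencephalon a strong source of Wnts is the cortical hem, at the caudomedial edge of the cortex. The antagonists work outside the cell. Sfrp proteins, with Frzb among them, carry a domain like that of Frizzled and bind Wnts, Wif1 binds Wnts through a domain of its own, and Dkk1 blocks Lrp5 and Lrp6. Dkk3 is a divergent Dkk whose effect on Wnt signalling is disputed.

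Values below are rostral over caudal ratios on the log2 scale, relative to the median of the array, so that 1 is a doubling. Without that centring the median of all features was -0.18. Values came from between 17998 and 20997 probes per array. On MF1 arrays 7.73% ± 2.72 of probes lacked a value and on C57 arrays 14.6% ± 2.24 (SD, 6 arrays each), and the robust SD of the ratios averaged 0.49 on MF1 arrays and 0.74 on C57 arrays. Each array held 1 strain, so a difference between strains cannot be told apart from one between these sets of arrays. No source used here states which dye is the numerator, and Cy5 over Cy3 was taken. The direction is likely rather than known. It rests on genes known to be graded, since the 5 caudal ones tested had a median of -0.38, with 4 below 0 and 1 above, and the 9 rostral ones of 0.19, with 6 above 0 and 3 below. The caudal genes listed were Nr2f1, Nr2f2, Lhx2, Fgfr3, Emx2 and Crym. The rostral ones were Fgf8, Fgf17, Fgf15, Etv4, Etv5, Spry1, Spry2, Spry4, Dusp6 and Pax6. Both lists were made with earlier results of these data known, so they are no independent support for the direction. None of the genes tested passed at an adjusted p under 0.05 (limma). With the opposite convention every sign below would turn. Arrays of 1 orientation correlated with each other between -0.04 and 0.32 (Pearson's r over probes). Within C57 the range was 0.23 to 0.32, within MF1 -0.03 to 0.20 and between the strains -0.04 to 0.11. MF1 pool 3 correlated with the other MF1 pools between -0.03 and 0.02. Such arrays share a dye order, and the part of the dyes in these correlations was not tested.

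Sfrp1, which in the mouse telencephalon is made by the progenitors of the ventricular zone, was higher rostrally in every pool. Its ratio was 1.09, 1.12 and 1.10 in MF1 pools 1 to 3, and 0.85, 1.30 and 0.80 in C57 pools 1 to 3. The 3 MF1 pools lay close together inside the range of the C57 pools. The mean was 1.04 ± 0.19 (SD, n = 6), a 2.06-fold difference. Among the 10596 features with values in 6 pools, 3.47% were above 0 in all of them, and 0.0378% had a mean at or above that of Sfrp1; this pattern is what put the gene in the family, so these shares describe it only.

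The dye exchange can be read directly from the deposited values of Sfrp1. With rostral RNA in Cy5, probe 1 had deposited ratios with a lowest value of 0.50, a median of 0.78 and a highest value of 1.11 over 6 arrays. With rostral RNA in Cy3 the same probe ran from -1.36 over a median of -1.18 to -0.73. The sign therefore changed with the dye that carried the rostral RNA in each of the 6 pools. Probe 2 did the same, from 0.14 over 0.70 to 0.93 in the first orientation and from -1.39 over -0.87 to -0.46 in the other. Once turned, the gene was above 0 on 12 of 12 arrays, which held for 0.245% of features.

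**Figure D1:**
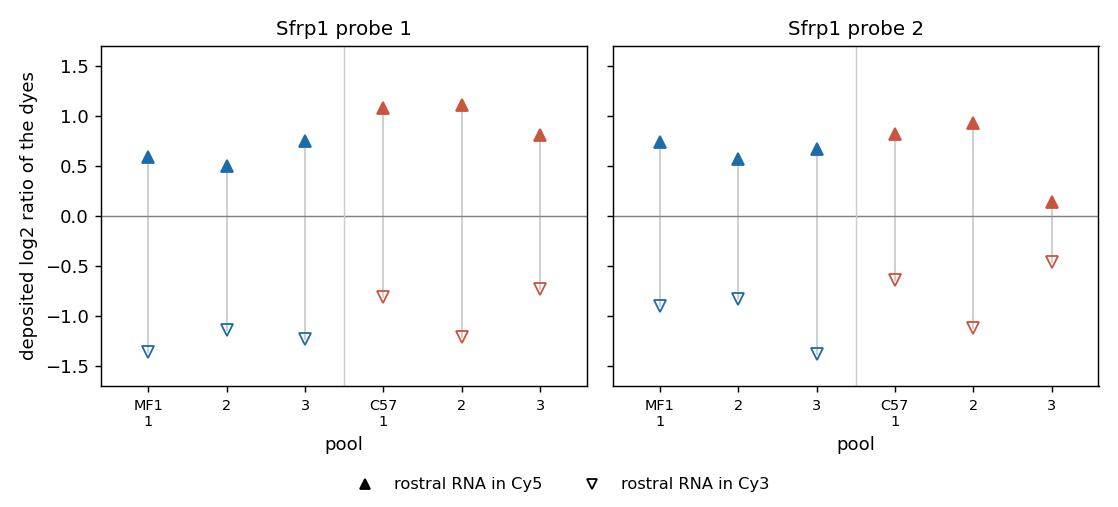
Deposited log2 ratio between the dyes (vertical axis) for both probes of Sfrp1 in each pool, with MF1 pools left of C57 pools. Filled triangles are arrays with rostral RNA in Cy5 and open triangles those with rostral RNA in Cy3; all filled ones lie above 0 and all open ones below 0.

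The probes of Sfrp1 differed in size but not in sign. Probe 1 gave 1.165, 1.18 and 1.08 in the MF1 pools and 0.96, 1.37 and 1.04 in the C57 pools, with a mean of 1.13 ± 0.14 (SD, n = 6). Probe 2 gave 1.01, 1.06 and 1.12 in the MF1 pools and 0.74, 1.24 and 0.565 in the C57 pools, with a mean of 0.96 ± 0.25. Probe 1 was higher than probe 2 in 5 of 6 pools, and the gap reached 0.47 in C57 pool 3. The lowest value of the gene, in that pool, thus came from probe 2. Both probes had their highest value in C57 pool 2.

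The close agreement of the MF1 pools appeared once both arrays of a pool were averaged. In MF1 pool 1 the array with rostral RNA in Cy3 gave 1.40 and the other 0.78, and in MF1 pool 2 they gave 1.46 and 0.78. In C57 pool 2, by contrast, both arrays lay close together, at 1.315 and 1.29. The median gap between the arrays of a pool was 0.16 for Sfrp1, against a median of 0.49 over all features tested.

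Sfrp2 is the member closest to Sfrp1 in kind and is known as a marker of the boundary between the pallium and the subpallium. It did not share the ratio of Sfrp1. Its values were -0.16, -0.36 and 0.33 in MF1 pools 1 to 3, and -0.24, -0.28 and 0.24 in C57 pools 1 to 3. In both strains pools 1 and 2 were below 0 and pool 3 above it, so the strains overlapped fully. The mean was -0.08 ± 0.29 (SD, n = 6). It was -0.27 with arrays not centred, -0.20 with rostral RNA in Cy5 alone and 0.039 with it in Cy3 alone, and leaving out a pool gave -0.18 without MF1 pool 3 to -0.0051 without MF1 pool 2, so no direction can be given. The arrays of a pool lay close together, with a median gap of 0.19 between the arrays of a pool and 1 sign on both arrays in 5 of 6 pools; 3.04% of features had 1 sign on both arrays of all 6 pools, and of the members Sfrp1 alone did.

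Frzb, also called Sfrp3, had a different spread in each strain. In MF1 its values were -0.037, -0.0145 and 0.094 and lay at 0 within a narrow band. In C57 they were 1.06, -0.71 and 0.425, spread on both sides of 0. The mean over both strains was 0.13 ± 0.58 (SD, n = 6), with 3 pools above 0 and 3 below. The arrays of the C57 pools disagreed. In pool 1 the arrays gave 2.30 with rostral RNA in Cy5 and -0.19 with it in Cy3, and in pool 2 they gave 0.34 and -1.77. Both arrays had 1 sign in 1 of 6 pools. With rostral RNA in Cy5 alone the mean was 0.62, and with it in Cy3 alone -0.35, and with arrays not centred the mean over pools was -0.054, so no direction can be given for this gene.

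Wif1 had the widest spread of the members with 6 pools. It was at -0.44, -1.17 and -1.44 in MF1 pools 1 to 3, and at -0.79, 1.59 and -2.61 in C57 pools 1 to 3. All MF1 pools were below 0, while C57 held both the highest and the lowest pool. The mean was -0.81 ± 1.39 (SD, n = 6), and 0.802% of features with 6 pools had an SD as large. The 2 arrays of a pool differed by 1.23 at the least and 4.01 at the most, and they had 1 sign in 3 of 6 pools. With rostral RNA in Cy5 alone the mean was -1.69, against 0.069 with it in Cy3 alone. Without C57 pool 2 the mean was -1.36 and without C57 pool 3 it was -0.31.

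Dkk1, a secreted inhibitor needed for head formation in the mouse, was measured on 8 of 12 arrays. Both arrays of a pool had a value in 3 pools, where the ratio was -0.08 and -1.40 in MF1 pools 1 and 2 and -3.55 in C57 pool 3. All 3 lay below 0, but they ranged widely. The C57 value rested on 1 array at -5.99, since the other array of that pool gave -1.11. Among the single arrays of other pools, MF1 pool 3 gave -0.90 and C57 pool 2 gave 0.465. C57 pool 1 had no value. Dkk1 therefore entered no fit and no comparison of strains.

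Dkk1 is itself known as a target of beta-catenin and its partner TCF, and its upstream sequence is shown for that reason. In the RefSeq promoter table (GRCm38.p6) 4 of the 6 members had an entry: Sfrp2, Frzb, Dkk1 and Wif1. The 250 bases before each start were searched on both strands for CTTTGAA and CTTTGTT, letters that TCF factors are known to bind. Dkk1 held both, on the gene's own strand, beginning 117 and 98 bases before the start, and the other 3 held neither. Of 32851 windows in the table, 4.46% held the first motif, 5.03% the second and 0.314% both. A match is a run of letters and not a shown binding site. The window, at chr19:30549497-30549746 on the minus strand, is given 5′ to 3′ with the matches in capitals.
Dkk1: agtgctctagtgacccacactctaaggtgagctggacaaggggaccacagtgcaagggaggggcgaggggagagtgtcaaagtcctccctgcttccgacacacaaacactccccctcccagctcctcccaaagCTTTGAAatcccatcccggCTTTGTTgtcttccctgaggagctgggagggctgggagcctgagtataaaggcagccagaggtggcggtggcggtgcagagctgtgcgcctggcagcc

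Dkk3 was below 0 in 5 of 6 pools, as was Wif1, but with a smaller spread than Wif1. The share of all features with such a count of pools or arrays was not taken, so the counts are a description only. Dkk3 was at 0.023, -0.17 and -0.34 in MF1 pools 1 to 3, and at -0.57, -0.31 and -0.52 in C57 pools 1 to 3. MF1 pool 1 stood at 0, and the 5 other pools were below it. The mean was -0.32 ± 0.22 (SD, n = 6), a 1.24-fold difference towards caudal. On single arrays 11 of 12 values were below 0. With arrays not centred Dkk3 was at -0.50, but there the median of all features was -0.18, so this is no check of its sign. With arrays scaled to a common spread it was -0.31, and scaling keeps the sign of each array. With rostral RNA in Cy5 alone it was -0.17, and with it in Cy3 alone -0.46.

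**Figure D2:**
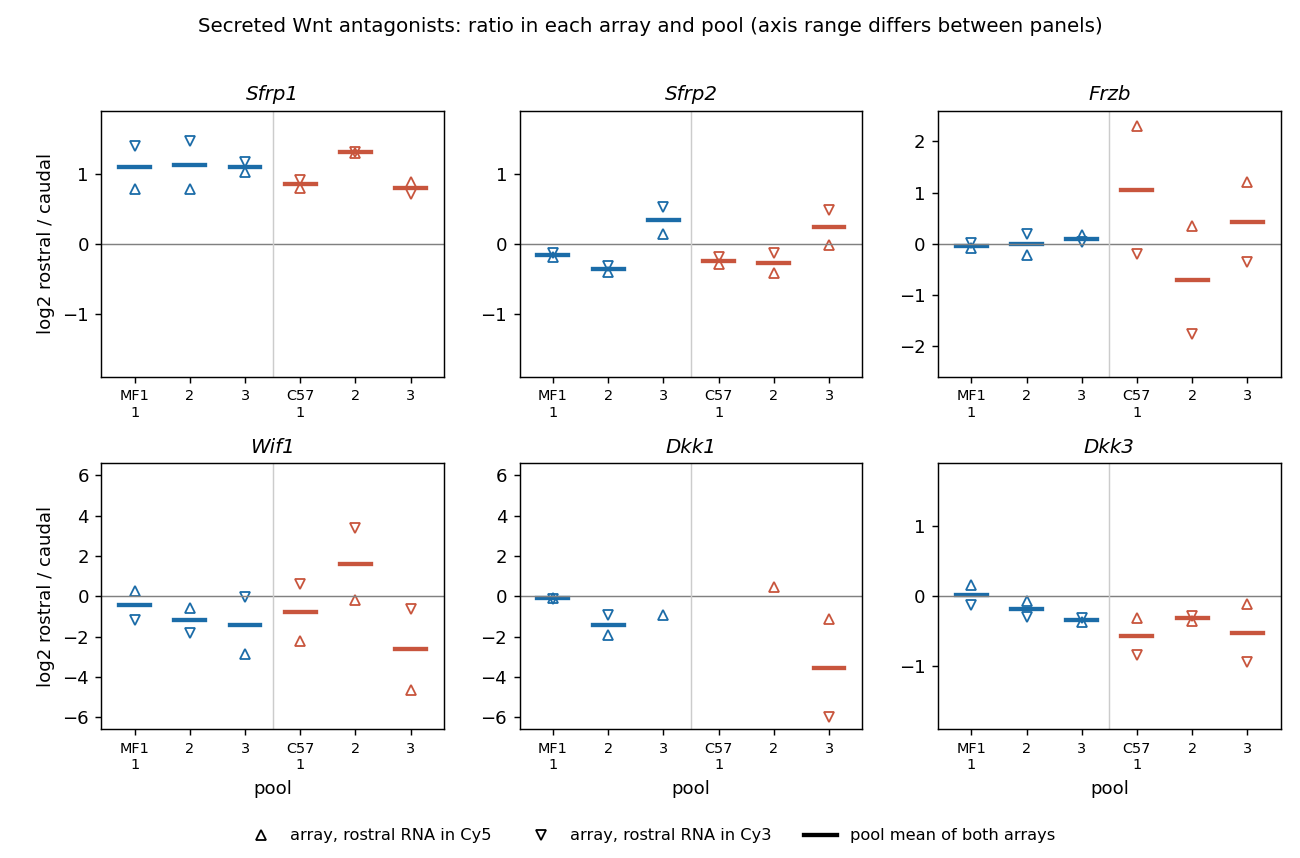
Log2 ratio of rostral over caudal RNA (vertical axis, with a range that differs between panels) for each member, with MF1 pools left of C57 pools. Triangles are single arrays by dye orientation, and bars are pool means of both arrays, drawn where both have a value. Sfrp1 lies above 0 on all 12 arrays, Dkk3 below 0 on 11 of 12, and the arrays of a pool lie far apart for Wif1 and, in C57, for Frzb.

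Set in order of their mean ratios, the members ran from Sfrp1 over Frzb, Sfrp2, Dkk3 and Wif1 to Dkk1. Sfrp1 exceeded Frzb by 0.91 ± 0.76 (SD of the difference within pools, n = 6) and in 5 of 6 pools, the exception being C57 pool 1. From Frzb downwards no neighbours differed beyond their spread. Frzb exceeded Sfrp2 by 0.21 ± 0.60 and Sfrp2 exceeded Dkk3 by 0.24 ± 0.42, each in 4 of 6 pools. Dkk3 exceeded Wif1 by 0.50 ± 1.34, in 5 of 6 pools. Wif1 and Dkk1 could be compared in 3 pools, where the difference was 0.27 ± 0.65. Of the 5 members with 6 pools, Sfrp1 was the single one with the same sign in each pool; among all features with 6 pools 5.97% had one.

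The strain comparison asked whether the gradient of an antagonist depended on the genetic background. With limma on pool means, 0 of the 5 members differed between MF1 and C57 at an adjusted p under 0.05, and 0 at an unadjusted p under 0.05. The pools of MF1 and C57 overlapped for each of the 5 members, while they did not overlap for 9.46% of features. Over all 14418 features 0% passed after adjustment and 6.1% had an unadjusted p under 0.05. Sfrp1 averaged 1.10 ± 0.017 in MF1 and 0.985 ± 0.28 in C57 (SD, n = 3 pools each). The difference was 0.12, with a 95% interval from -0.43 to 0.67 (limma, adjusted p = 0.989). This interval holds 0 and its upper end is a sizeable difference, so the strains are not shown to be alike. The fit gave both strains 1 estimate of the spread of a gene. The SDs in MF1 and C57 were unlike for Sfrp1, for Frzb (0.070 and 0.90) and for Wif1 (0.52 and 2.11). The intervals of the members therefore rest on an equal spread that these SDs do not show. Without C57 pool 2 the difference was 0.28, without C57 pool 1 it was 0.050 and without C57 pool 3 it was 0.026. With arrays scaled to a common spread it was 0.61, at an unadjusted p of 0.0369 and an adjusted p of 0.886.

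Dkk3 averaged -0.16 ± 0.18 in MF1 and -0.47 ± 0.14 in C57 (SD, n = 3 pools each). The difference of 0.31 had an interval from -0.22 to 0.83 (limma, adjusted p = 0.948), and MF1 pool 3 overlapped the C57 pools. For Sfrp2 the means were -0.06 in MF1 and -0.10 in C57. Their difference of 0.034 had an interval from -0.64 to 0.71 (limma, adjusted p = 0.998). For Frzb the means were 0.014 in MF1 and 0.26 in C57, with a difference of -0.24 and an interval from -1.30 to 0.82 (limma, adjusted p = 0.984). For Wif1 they were -1.02 in MF1 and -0.60 in C57, with a difference of -0.42 and an interval from -2.76 to 1.93 (limma, adjusted p = 0.989). The intervals of Frzb and Wif1 were the widest, and these were the genes whose arrays disagreed most within a pool.

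**Figure D3:**
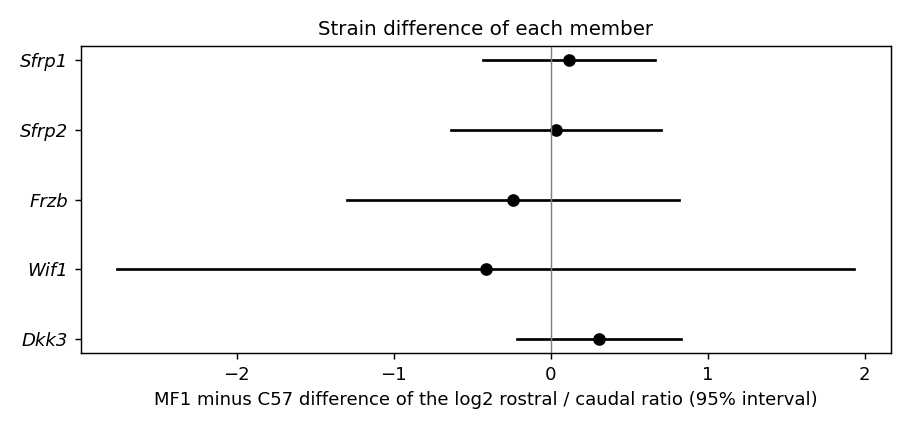
Difference between MF1 and C57 in the log2 rostral over caudal ratio (horizontal axis) for the 5 members in the fit, with points for the estimate and lines for limma's 95% interval on 3 pools per strain. Every interval crosses 0, and that of Wif1 reaches from -2.76 to 1.93.

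The rest of the pathway that the antagonists act on was tested for rostral against caudal tissue. Of 104 other Wnt pathway genes in 5 lists, 94 had a probe with 1 gene symbol and 72 were tested. With limma, 0 rose and 0 fell rostrally at an adjusted p under 0.05, and the smallest adjusted p was 0.524. No feature of the whole table passed either (0%), so this count says nothing particular about the pathway. At an unadjusted p under 0.05 there were 2 of 72, or 2.78%, Tle4 higher and Rspo3 lower rostrally, against 8.98% of all features (4.34% higher and 4.64% lower). Of all features at that threshold 48.3% were higher rostrally, against 6.64% with arrays not centred. This count varied with single pools, from 0 without MF1 pool 2 and 1 without MF1 pool 1 or C57 pool 3, over 3 without C57 pool 1, to 7 without MF1 pool 3 or without C57 pool 2. Of the 63 genes with 6 pools 0 had 1 sign throughout, beside 5.97% of all features with 6 pools. The median of the 72 was -0.02, beside 0.0091 for all features tested.

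Among the other secreted modulators 11 genes were tested, 4 above 0 and 7 below, with a median of -0.04. Rspo3, an R-spondin that strengthens Wnt signals, had a mean of -0.40 ± 0.49 (SD, n = 6; limma, adjusted p = 0.538), with 5 of 6 pools below 0. Apcdd1, a membrane protein that inhibits Wnt signalling, had a mean of -0.38 ± 0.38 (adjusted p = 0.555), also with 5 of 6 pools below 0. The remaining relatives of the members were named for their family. Sfrp4 was at -0.04 ± 0.41, Sfrp5 at -0.00071 ± 0.39 and Dkkl1 at 0.0048 ± 0.16. The sign of these 3 turned between single dye orientations. Dkk2 was at -0.60 ± 1.03, with -2.56 in C57 pool 3, and at -0.27 without that pool.

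Among the ligands 13 genes were tested, 5 above 0 and 8 below, with a median of -0.02. Means given with 5 pools weigh pools equally, while the fit behind their p weighs strains equally. Wnt9b was at -0.31 ± 0.30 (SD, n = 5; limma, adjusted p = 0.577). Wnt3a, a ligand of the cortical hem, was at -0.24 ± 0.29 (n = 6; adjusted p = 0.597), with 0.072, -0.0065 and -0.20 in MF1 pools 1 to 3 and -0.68, -0.15 and -0.49 in C57 pools 1 to 3. All 3 C57 pools of Wnt3a were below 0. Among the receptors 17 genes were tested, 6 above 0 and 11 below, with a median of -0.075. The Frizzled receptors Fzd4, at -0.48 ± 0.81 (n = 5), and Fzd9, at -0.28 ± 0.35 (n = 6), had the smallest p of that list (adjusted p of 0.597 and 0.598 by limma). Fzd4 reached -1.87 in C57 pool 1, far from its 4 other pools.

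Among the genes of signal transduction 18 were tested, 14 above 0 and 4 below, with a median of 0.09. Tle4, a co-repressor that binds TCF factors, was at 0.31 ± 0.20 (SD, n = 6; limma, adjusted p = 0.524), and its relative Tle1 at 0.25 ± 0.36 (n = 5; adjusted p = 0.623). The probes of Tle4 differed, with means of 0.46 and 0.11. Among targets and feedback genes 13 were tested, 3 above 0 and 10 below, with a median of -0.10. Axin2, a direct target and inhibitor of the pathway, was at -0.19 ± 0.19 (n = 6; adjusted p = 0.661), and Tnfrsf19, a receptor induced by Wnt signals, at -0.39 ± 0.68 (n = 6; adjusted p = 0.678). Axin2 stood at -0.37, -0.13 and 0.0105 in MF1 pools 1 to 3 and at -0.39, 0.049 and -0.30 in C57 pools 1 to 3, so 4 of 6 pools were below 0.

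**Figure D4:**
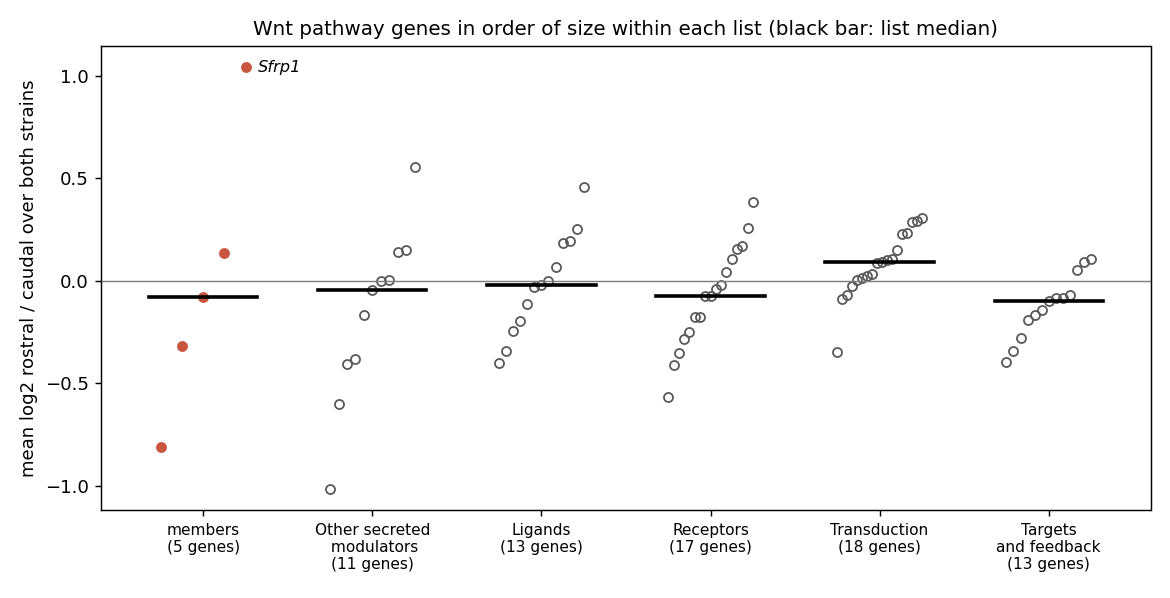
Mean log2 rostral over caudal ratio over both strains (vertical axis) for the 5 members in the fit (filled) and for the tested genes of 5 Wnt pathway lists (open), in order of size within each list, with black bars for list medians. Sfrp1, at 1.04, lies above every other gene drawn, and the list medians lie between -0.10 and 0.09.

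Markers of other tissues are given beside these ratios, and their part in them was not tested. No marker passed at an adjusted p under 0.05 (limma, smallest 0.328), but no feature did (0%), so this says nothing particular about markers. At an unadjusted p under 0.05 (limma) were 42.9% of hem and choroid plexus genes, 3 of 7, all lower rostrally. Meninges and mesenchyme had 30.8% (1 higher and 3 lower of 13) and neocortex 28.6% (1 higher and 1 lower of 7). Blood vessels had 11.1% (1 lower of 9) and the ventral list 10% (1 lower of 10), against 8.98% of all features. With so few genes per list, these shares show no excess. Of all features tested 7437 were above 0 and 6981 below. Genes of the cortical hem and choroid plexus, 7 of 10 tested and 2 of them shared with the Wnt lists, were below 0 in 7 of 7, with a median of -0.24 and pool medians from -0.52 to -0.10. This list was made with earlier results of these data known and does not stand for every gene of these tissues. Among Wnt genes outside it, Rspo3 and Wnt9b were below 0, as given above. Wnt8b was at 0.25 ± 0.47 (SD, n = 6), with 3 pools above 0, and Rspo2 at 0.50 ± 0.65 (n = 5), with 4 above. Those of meninges and mesenchyme, 13 of 16 tested, were above 0 in 4 and below in 9, with pool medians from -0.36 to 0.12. Those of the ventral telencephalon and the boundary marked by Sfrp2 were above 0 in 5 and below in 5 of 10 tested, and those of blood vessels above in 3 and below in 6 of 9. Neocortical markers were above 0 in 6 of 7 tested, with 4 of 6 pool medians above 0. The lowest pool median was -0.43 (MF1 pool 3) and the highest 0.42 (MF1 pool 1). That list shares Emx2, Lhx2 and Pax6 with the graded genes used for the direction, so it is no separate measure of neocortex. Ratios hold no level, so the presence of a tissue could not be checked.

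The 5 named genes with pool ratios most like those of Sfrp1 were found by the root mean square difference over 6 pools among 8878 genes. Fgfbp3, a secreted FGF binder, was nearest at 0.22, with a mean of 1.06 ± 0.11 (SD, n = 6). Dct, known for melanin synthesis, followed at 0.31, Pantr1, a noncoding RNA, at 0.32, Gas1, a co-receptor for hedgehog, at 0.34 and Rlbp1, a carrier of retinaldehyde, at 0.40. The median gene stood at 1.10. The other antagonists were no closer than that, at 1.14 for Frzb, 1.18 for Sfrp2, 1.37 for Dkk3 and 2.18 for Wif1. Sfrp1 was chosen for its high ratio, so any gene with ratios near 0 lies about as far from it as the median gene. These distances therefore restate the size of the ratios and are a description only.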

How the data were processed

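The deposited values are log2 dye ratios, judged from the values themselves, which take both signs and stop at 16.61 (a 100000-fold ratio). How the authors corrected background or normalized them is not stated in any source used here. All 12 columns belonged to the series (0 others). Values at that limit, 701 in all, were left out. Because medians of the arrays lay between -0.41 and 0.475, the median was subtracted per array. Arrays with rostral RNA in Cy3 were turned, since deviations of both arrays of a pool correlated negatively in 5 of 6 pools (Spearman, -0.30 to -0.10, and 0.0091 in C57 pool 3). Both arrays of a pool were averaged where both had a value, then probes of a gene.

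Features with at least 2 pools per strain entered lmFit and eBayes of limma 3.58.1 (R 4.3.3). The model held a mean per strain and 1 estimate of the spread of a gene for both strains. Benjamini-Hochberg adjustment ran over 14418 features, with a threshold of 0.05. The code was also run on simulated normal noise of equal spread in both strains. The real spreads were unequal, so that run does not tell what 0 passing features means here. Symbols came from the platform annotation (16864 probes with 1 symbol, 139 with several and 4995 with no entry). No intensities were used, so signal over background is unknown, and the number of arrays limits the precision. Named genes were all members, per Wnt list the 2 genes of smallest p, and the 5 genes nearest to Sfrp1; Sfrp4, Sfrp5, Dkk2 and Dkkl1 were added for their family. Members and lists were chosen with earlier results of these data known. Alternatives covered centring, scaling, ceiling values, dye orientation, single probes and pools, complete features, the 12 arrays and the pool number.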

Additional observations from a re-analysis of the deposited data

Results flagged for a closer look

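Among the 24 named genes with 4 or more pools, a pool stood far from the others in 3. Chance gives about 1 in 20 genes, and the share over all features was not taken, so no excess is shown. Dkk2 was at -2.56 in C57 pool 3, while its 5 other pools lay between -0.67 and 0.40. Fzd4 was at -1.87 in C57 pool 1, while its 4 other pools lay between -0.33 and 0.25. Tle4 was at -0.072 in MF1 pool 3, while its 5 other pools lay between 0.31 and 0.46. That narrow band comes from averaging, since the probes disagreed in C57 pool 3, at 1.11 for probe 1 and -0.20 for probe 2. Probe 2 was lower there than in MF1 pool 3, at -0.088, and had no value in C57 pool 1. MF1 pool 3 thus did not stand apart for probe 2. None of the 6 members was singled out in this way, and Dkk1, with 3 pools, could not be looked at. No member had all MF1 pools on one side of 0 and all C57 pools on the other.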

How the results depend on the processing

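The ratio of Sfrp1 lay between 0.93 with rostral RNA in Cy5 alone and 1.16 with it in Cy3 alone under the alternatives run. The exception was 0.86 with arrays not centred, where the median of all features was -0.18. Leaving out a pool gave 0.96 to 1.09. Sfrp1 was above 0 on all 12 arrays and chosen by this ratio. Leaving out a pool or a dye orientation therefore could not turn its sign, and these values describe its size only. The count of members that differed between the strains was 0 after adjustment under every alternative; at an unadjusted p it was 1 with arrays scaled (Sfrp1), with rostral RNA in Cy5 alone (Frzb) and without C57 replicate 2 (Frzb, -0.73). The MF1 minus C57 difference of Sfrp1 turned to -0.13 with rostral RNA in Cy5 alone and ran from 0.026 to 0.28 without a pool. That of Sfrp2 turned to -0.018 with arrays not centred, -0.021 with arrays scaled and -0.025 with rostral RNA in Cy3 alone, and ran from -0.16 to 0.20 when a pool was left out. That of Frzb turned to 0.84 with rostral RNA in Cy3 alone and ran from -0.73 to 0.16 without a pool, and that of Wif1 turned to 1.29 with rostral RNA in Cy5 alone and ran from -1.42 to 0.68.

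Wnt pathway genes past the adjusted threshold numbered 0 throughout. At an unadjusted p under 0.05 there were 2, but 14 with arrays not centred, 14 with rostral RNA in Cy5 alone, 19 with it in Cy3 alone, 4 in limma on the 12 arrays, and 0 to 7 without a pool. With rostral RNA in Cy5 alone Rspo3 turned to 0.0065, Fzd4 to 0.28 and Fzd9 to 0.040, and with it in Cy3 alone Tle4 turned to -0.0515 and Axin2 to 0.20. Dkkl1 turned to -0.18 with arrays not centred, -0.021 with arrays scaled and -0.50 with rostral RNA in Cy5 alone, Sfrp4 to 0.60 with it in Cy5 alone and Sfrp5 to 0.66 with it in Cy3 alone. Without a pool Dkkl1 ran from -0.053 to 0.053, Sfrp4 from -0.15 to 0.11 and Sfrp5 from -0.13 to 0.13. The causes were not tested. Over all features limma passed 0 on the pool means of 14418 features and 5 on those of the 10596 features complete in 6 pools. It passed 25 on the 12 arrays, where the correlation estimated between arrays of a pool was 0.00624, so that they counted almost as independent samples. Same-numbered pools of the strains had deviations correlated between -0.14 and 0.058, and pools of different numbers between -0.14 and 0.15. No pairing by number was seen, but so few pairs cannot exclude one. With the pool number as a replicate block 0 members passed, and the difference of Sfrp1 was 0.12.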
